A study of Mus musculus with 30 samples.

Results

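The peaks described here are places at the edge of a gene where UTX was found in drug-treated leukaemia cells and Menin had no peak in vehicle-treated cells. They were chosen by peak position alone: a UTX MI-503 summit no more than 1 kb from either annotated edge of a protein-coding gene on chromosomes 1 to 19, and no base pair shared with any Menin DMSO peak. These conditions held for 2622 of 8134 boundary UTX peaks, which is 32.2% (exact 95% interval 31.2 to 33.3%), out of 14231 UTX MI-503 peaks in all. The other 5512 boundary peaks shared at least 1 bp with a Menin peak. Menin-free, as used below, means only that the Menin DMSO list has no peak over the UTX peak. Because the choice used the UTX MI-503 and Menin DMSO peak calls, that share is a description and not a test.

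The 4 libraries used came from WT-MA9 cells, mouse acute myeloid leukaemia cells that stably carry a retroviral MLL-AF9-GFP construct. The 4 peak lists used were UTX in MI-503, UTX in DMSO, Menin in MI-503 and Menin in DMSO, with 1 library each, and cells were harvested 4 days after treatment. MI-503 is an inhibitor of Menin binding to MLL1, given here at a concentration that the labels do not state, and DMSO is the vehicle. The main pair of lists differs in antibody and in treatment at once, and no comparison has a replicate check. Intervals printed below cover counting error only, and no p-value was computed.

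UTX, encoded by Kdm6a, removes methyl groups from lysine 27 of histone H3 and is a subunit of the MLL3 and MLL4 histone methyltransferase complexes, which are best known at enhancers. Menin, encoded by Men1, is the scaffold through which MLL1, MLL2 and MLL fusion proteins are held at many active promoters. The series title names a switch between MLL complexes under Menin-MLL inhibition, and the peaks described here are the gene-edge UTX sites with no overlapping Menin peak in vehicle. NF-Y, a trimeric promoter factor encoded by Nfya, Nfyb and Nfyc, binds the CCAAT box, and libraries labelled for Nfya in the series were not analysed here.

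The promoters of 4 of the highest of these peaks are shown first, because they carry the strongest UTX enrichment without Menin, each as 300 bases of RefSeq sequence (GRCm38.p6) from 250 bases before the annotated start, with CCAAT boxes in capitals, written as ATTGG where they lie on the other strand. Klhl25 (chr7:75848088-75848387, plus strand) had 1 box, Arl15 (chr13:113794258-113794557, plus strand) had 2, Map7d1 (chr4:126256270-126256569, minus strand) had 0 and Rpn1 (chr6:88084223-88084522, plus strand) had 1.
Klhl25: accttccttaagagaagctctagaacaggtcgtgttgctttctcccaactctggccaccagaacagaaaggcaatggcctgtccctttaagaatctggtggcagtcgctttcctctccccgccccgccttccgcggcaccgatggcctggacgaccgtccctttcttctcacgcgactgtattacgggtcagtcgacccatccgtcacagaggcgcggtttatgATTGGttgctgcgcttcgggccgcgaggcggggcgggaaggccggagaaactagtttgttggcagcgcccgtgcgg
Arl15: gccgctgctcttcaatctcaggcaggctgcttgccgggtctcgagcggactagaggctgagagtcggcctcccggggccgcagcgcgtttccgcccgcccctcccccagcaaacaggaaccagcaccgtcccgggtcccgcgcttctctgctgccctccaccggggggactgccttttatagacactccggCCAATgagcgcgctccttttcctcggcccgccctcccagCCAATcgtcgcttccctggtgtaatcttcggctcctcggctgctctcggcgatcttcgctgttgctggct
Map7d1: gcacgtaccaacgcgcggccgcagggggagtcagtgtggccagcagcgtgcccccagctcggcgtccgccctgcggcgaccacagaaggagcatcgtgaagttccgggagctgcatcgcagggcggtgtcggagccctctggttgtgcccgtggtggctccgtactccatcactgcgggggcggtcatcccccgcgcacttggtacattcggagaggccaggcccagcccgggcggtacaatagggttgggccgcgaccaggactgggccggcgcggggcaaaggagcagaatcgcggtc
Rpn1: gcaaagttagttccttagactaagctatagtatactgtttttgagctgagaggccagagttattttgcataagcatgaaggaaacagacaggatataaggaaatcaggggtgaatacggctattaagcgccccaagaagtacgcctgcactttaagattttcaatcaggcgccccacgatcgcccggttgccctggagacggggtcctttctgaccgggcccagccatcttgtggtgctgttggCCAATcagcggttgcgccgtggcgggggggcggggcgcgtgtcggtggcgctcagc
The UTX summit lay 64 bp upstream of the annotated start at Klhl25, 111 bp upstream at Arl15 and at Map7d1, and 46 bp downstream at Rpn1.

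Promoters of 4 genes of cell division follow, because mitotic genes with Menin-free peaks are described further on and each of these windows holds the summit of such a peak. They were picked by name, and other such windows, as at Bub3 and Mki67, are not printed. All 4 carry a box, so they are not representative: 35.0% of Menin-free windows that held the summit did (216 of 617). Cdk1 (chr10:69352863-69353162, minus strand) had 3 boxes, Cenpe (chr3:135212313-135212612, plus strand) had 1, Spc25 (chr2:69206164-69206463, minus strand) had 2 and Ccnb1 (chr13:100786437-100786736, minus strand) had 2, with all sequences on the strand of the gene.
Cdk1: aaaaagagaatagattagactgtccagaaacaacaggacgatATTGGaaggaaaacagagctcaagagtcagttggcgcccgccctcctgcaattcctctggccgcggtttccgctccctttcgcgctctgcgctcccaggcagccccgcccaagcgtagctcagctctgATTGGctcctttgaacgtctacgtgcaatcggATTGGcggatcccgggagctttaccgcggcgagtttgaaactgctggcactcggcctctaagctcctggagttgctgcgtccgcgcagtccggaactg
Cenpe: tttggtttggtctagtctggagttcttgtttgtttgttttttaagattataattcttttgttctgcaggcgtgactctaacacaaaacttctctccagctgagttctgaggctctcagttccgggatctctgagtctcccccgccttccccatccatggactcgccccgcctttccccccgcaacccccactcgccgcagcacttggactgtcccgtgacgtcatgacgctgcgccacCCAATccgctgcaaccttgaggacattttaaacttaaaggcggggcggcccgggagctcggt
Spc25: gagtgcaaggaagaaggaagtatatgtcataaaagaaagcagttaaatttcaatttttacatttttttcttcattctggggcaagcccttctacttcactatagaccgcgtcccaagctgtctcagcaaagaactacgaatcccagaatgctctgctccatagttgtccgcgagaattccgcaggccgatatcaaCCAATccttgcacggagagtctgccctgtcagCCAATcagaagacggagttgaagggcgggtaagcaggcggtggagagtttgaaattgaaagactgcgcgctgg
Ccnb1: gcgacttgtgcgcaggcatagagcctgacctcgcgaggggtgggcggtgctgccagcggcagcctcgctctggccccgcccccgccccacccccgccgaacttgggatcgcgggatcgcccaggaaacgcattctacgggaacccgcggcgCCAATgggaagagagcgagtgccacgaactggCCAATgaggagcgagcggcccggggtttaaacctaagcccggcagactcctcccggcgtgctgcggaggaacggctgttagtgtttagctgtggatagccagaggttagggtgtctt
The middle of the boxes lay 206, 78 and 46 bp upstream of the start at Cdk1, 53 and 21 bp upstream at Spc25, 97 and 65 bp upstream at Ccnb1 and 10 bp upstream at Cenpe.

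Peaks are ordered here by −log10 q, not by fold, also where a peak is called the highest or leading one of a gene list. The highest Menin-free peak was at Klhl25, which encodes a substrate adaptor of CUL3 ubiquitin ligases. It spanned chr7:75848143-75848525 in the deposited list, with a fold enrichment of 24.5, a −log10 q of 60.1 and 50 fragments over its summit, and the nearest Menin DMSO peak lay 23881 bp away. Arl15, an ARF-like small GTPase gene, followed with 22.4-fold and 40 fragments, and Map7d1, a microtubule-associated protein gene, with 21.3-fold and 38 fragments. Luc7l2, whose product works with the U1 splicing particle, had 18.1-fold, and it was the only one of the 12 highest with a Menin peak within 1 kb, at 466 bp. Rpn1, a subunit of the oligosaccharyltransferase that glycosylates proteins in the endoplasmic reticulum, had 17.3-fold.

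The rest of the 12 highest peaks lay between 13.4-fold and 16.98-fold. Tle3, a Groucho-family corepressor gene, had 13.4-fold with 42 fragments where the local background was 2.67 times the lowest value, and its nearest Menin peak was 1219 bp away. The pairs Cops7b and Pde6d, Car7 and Nae1, and Rbak and Spdye4b each shared 1 peak, at 16.98-fold, 16.96-fold and 16.4-fold. Nae1 encodes a subunit of the enzyme that activates NEDD8, and Cops7b a subunit of the signalosome that removes NEDD8 from cullins. Fam117b, the chaperone gene Hsph1 and the pyridoxal phosphate binding protein gene Plpbp had 16.4-fold, 15.3-fold and 15.6-fold. The 3 with the lowest −log10 q, at Galnt12, Madd and Neu3, had folds of 3.29, 3.64 and 3.64, from 12, 8 and 8 fragments.

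As a group the Menin-free peaks were low and narrow. Their median fold enrichment was 6.30 (6.19 to 6.41), against 11.3 (11.0 to 11.5) for boundary UTX peaks with Menin, and their median −log10 q was 6.71 against 18.9. The fragments over the summit numbered 7 to 72 with a median of 11 in Menin-free peaks and 7 to 166 with a median of 22 in peaks with Menin. Median width was 216 bp (214 to 220) without Menin and 404 bp (398 to 409) with Menin. A wider UTX peak shares a base pair with Menin more readily, so the choice itself uses the peak edges and the difference in width is in part fixed by it. The narrowest width of the list, 179 bp, was reached by 457 Menin-free peaks (17.4%) and by 137 peaks with Menin (2.49%). The values were closer to those of the 3953 Menin-free UTX peaks without a protein-coding gene boundary within 1 kb of the summit, which had a median fold of 5.91 and a median width of 193 bp.

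Local background was close in both groups. The median background recovered from the deposited values was 0.898 fragments at Menin-free peaks and 0.924 fragments at peaks with Menin. Background of 3 times the lowest value or more was found at 12 Menin-free peaks (0.458%) and at 71 peaks with Menin (1.29%).

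The share of boundary UTX peaks without Menin was lower at each step up in UTX strength. Below a −log10 q of 5 it was 70.7% (677 of 957, 67.7 to 73.6%), and from 5 to 7.5 it was 66.3%. It was 48.3% from 7.5 to 10, 27.4% from 10 to 15 and 9.73% from 15 to 25. At 25 or more, 31 of 2048 peaks lacked Menin, which is 1.51% (1.03 to 2.14%). The part that the callers' thresholds play in these shares was not tested.

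**Figure D1:**
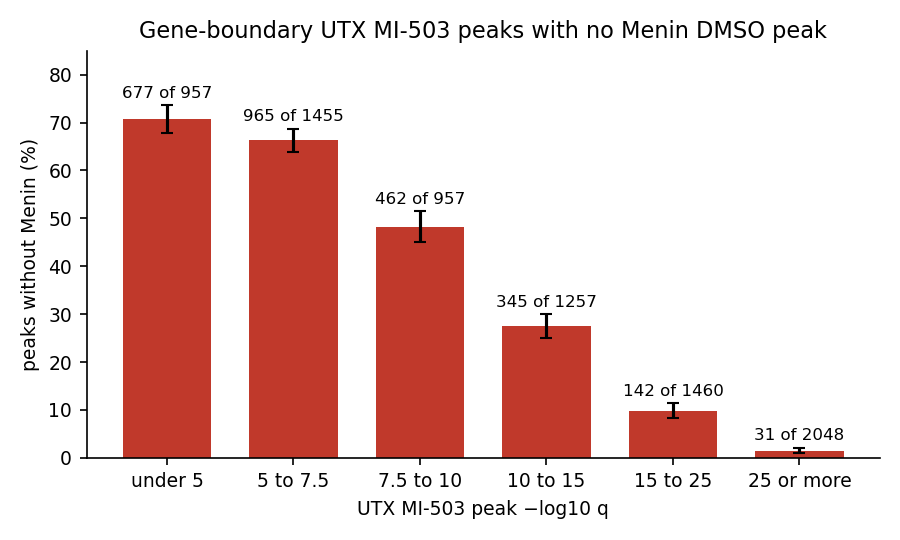
Share of gene-boundary UTX MI-503 peaks without a Menin DMSO peak (percent) by −log10 q of the UTX peak. Bars give the share, whiskers exact 95% intervals and labels the counts, and the share is 70.7% in the weakest class and 1.51% in the strongest.

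In classes of like UTX strength the median widths also differed, with the same limit. From 10 to 15 in −log10 q, the median width was 304 bp without Menin and 358.5 bp with Menin, at median folds of 8.54 and 8.76. From 15 to 25 it was 345 bp without Menin and 421 bp with Menin, and at 25 or more it was 411 bp and 510 bp. Menin-free peaks were the narrower ones in all 6 classes, with 183 bp against 190 bp in the weakest.

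The distance to the nearest Menin DMSO peak fell into a near and a far range. A Menin peak lay within 1 kb of 807 Menin-free peaks (30.8%, 29.01 to 32.6%), within 500 bp of 673 and within 100 bp of 226. The median distance over all 2622 was 13899.5 bp, and 1149 had a Menin peak within 10 kb. The closest were at Stxbp2, Slc25a51 and Ccnh, with Menin peaks 1, 4 and 5 bp away. The farthest were at Mdfic, Pcdh17 and Rnpc3, at 1915808, 2697584 and 2793364 bp. The Rnpc3 peak was nevertheless among the strong ones, with 14.8-fold and 26 fragments, and Rnpc3 encodes a protein of the minor spliceosome.

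**Figure D2:**
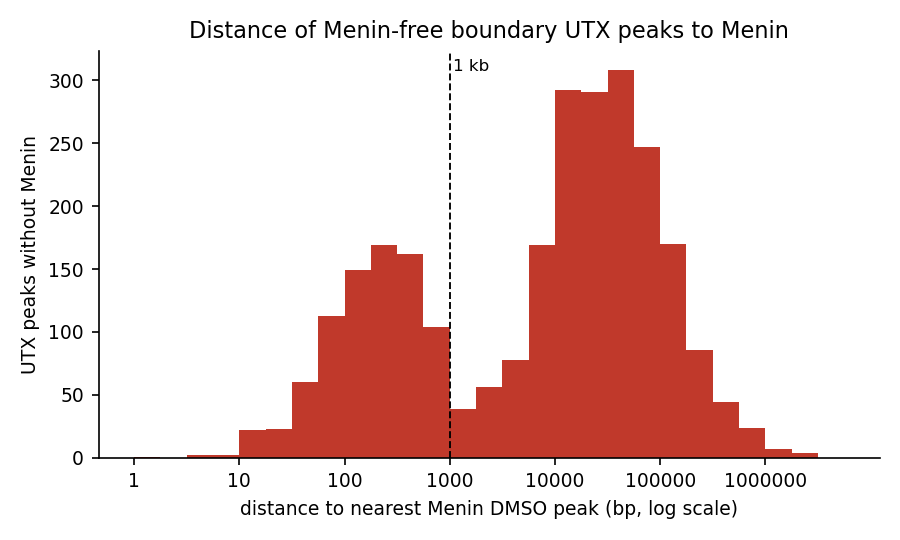
Number of Menin-free boundary UTX peaks by distance to the nearest Menin DMSO peak (bp, log scale). The dashed line marks 1 kb, with 807 peaks at or below it and 1815 above it.

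The peaks at the limits of the choice had ordinary values. Just outside the overlap condition, the UTX peaks at Sfr1 and Ube2j2 shared 1 bp with a Menin peak and that at BC048403 shared 2 bp, with folds of 7.43, 5.47 and 4.61. Just inside the 1 kb window lay the peaks at Svil (994 bp, 8.76-fold), Stat5a (997 bp, 5.51-fold) and Rflna (999 bp, 6.57-fold). Just outside it lay that at Cuedc2 (1003 bp, 5.66-fold).

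The 807 peaks near Menin mostly lay beside a UTX peak that overlapped Menin. Of them, 710 (88.0%) had another UTX MI-503 peak within 1 kb that overlapped Menin. How often Menin peaks at gene boundaries are overlapped by UTX at all was not counted beside it. Among the 647 with a start within 1 kb, the UTX summit lay downstream of the Menin summit, along the gene, in 497 (76.8%, 73.4 to 80.0%). The median offset over the 647 was 425 bp. Small offsets could not occur, because the choice bars contact with Menin, so the size of the offset is in part fixed by it. The nearest Menin peaks had a median fold of 6.89 for those 497 and 5.65 for the 150 on the upstream side, against 5.87 over all 11195 Menin DMSO peaks. Setd1a, a histone H3 lysine 4 methyltransferase gene, had a peak of 11.3-fold and 22 fragments 121 bp from Menin, with the summit 276 bp upstream of the start. Genes with such peaks are counted apart from genes without any Menin peak at a boundary further on.

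Menin-free summits lay farther along the gene than the others. The strand of the gene was known for 2131 of the 2622, from the promoter table. That table has no entry for chromosome 18, so results by strand, start or promoter sequence leave that chromosome out. The median summit lay 90 bp downstream of the annotated start (76 to 101) in Menin-free peaks and 44 bp upstream (40 to 48, n = 4650) in peaks with Menin. Between 250 bp and 1 kb downstream lay 26.9% of Menin-free summits (573) and 4.45% of summits with Menin (207). Between 250 and 50 bp upstream of the start, the shares were 15.1% without Menin and 38.7% with Menin.

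Both kinds of Menin-free peak were shifted, those near Menin more so. Near Menin the position is in part fixed by the choice, because a Menin-free peak may not touch the Menin peak beside it. The medians over all Menin-free peaks include these peaks. The median was 290 bp downstream in peaks within 1 kb of Menin (253 to 318, n = 679) and 53.5 bp downstream in those with no Menin within 1 kb (44 to 65, n = 1452). The shift was smaller among strong peaks. Menin-free peaks had medians of 164, 133.5, 84 and 39 bp downstream in the 4 classes below a −log10 q of 15, where peaks with Menin had 19.5 bp downstream and 7, 16 and 17 bp upstream. From 15 to 25 the medians were 8 bp upstream without Menin and 35 bp upstream with Menin, and at 25 or more they were 36 bp and 67 bp upstream.

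**Figure D3:**
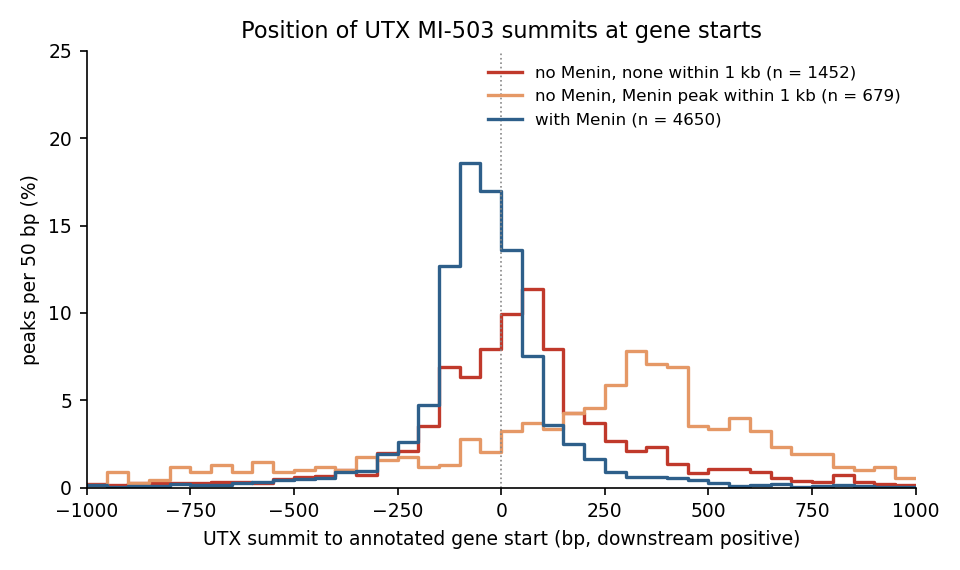
Distribution of UTX MI-503 summits around the annotated gene start (bp, downstream positive), as percent of peaks per 50 bp in 3 groups. Summits with Menin have a median 44 bp upstream, Menin-free summits with no Menin within 1 kb 53.5 bp downstream, and those within 1 kb of Menin 290 bp downstream.

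Most Menin-free peaks were at gene starts, and a small part at ends. A start of a gene of known strand was the boundary in 93.3% (1988 of 2131, 92.1 to 94.3%) of Menin-free peaks and in 98.1% (4560 of 4650) of peaks with Menin. An end alone was the boundary, among genes of known strand, of 143 Menin-free peaks (6.71%) and of 90 peaks with Menin (1.94%). Some of these peaks also lay near a gene of unknown strand, which could have its start there. Where every boundary gene had a known strand, an end alone was the boundary of 125 of 2053 Menin-free peaks (6.09%, 5.09 to 7.21%) and of 60 of 4466 peaks with Menin (1.34%, 1.03 to 1.73%). Of the 143, 7 lay within 1 kb of the start of any gene in the promoter table. The highest was at the end of Dapk3, a death-associated protein kinase gene, with 13.1-fold and 23 fragments (chr10:81192262-81192551). After Lars2, described further on, came a peak near boundaries of Trp53i13 and Git1, at 11.5-fold, and one near boundaries of Clstn1 and Pik3cd, a leukocyte PI3 kinase gene, at 10.4-fold. These end peaks were named after their values were seen.

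Summits near boundaries of several genes were less frequent without Menin than with it. Boundaries of 2 or more genes lay within 1 kb of the summit in 428 Menin-free peaks (16.3%, 14.9 to 17.8%) and in 1124 peaks with Menin (20.4%, 19.3 to 21.5%). Of 303 Menin-free peaks at 2 genes with known strands, 222 (73.3%) lay at 2 starts on opposite strands. The same share was not computed for peaks with Menin, so it is not a trait of the Menin-free ones. Chromosomes varied little, from 26.8% without Menin on chromosome 18 (55 of 205, 20.9 to 33.4%) to 36.3% on chromosome 3 (146 of 402, 31.6 to 41.2%).

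The other 2 lists, which played no part in the choice, are short, with 217 UTX DMSO and 8 Menin MI-503 peaks. A UTX DMSO peak overlapped 144 of all 8134 boundary peaks (1.77%), of which 3 were without Menin (0.114%, 0.0236 to 0.334%) and 141 with Menin (2.56%, 2.16 to 3.01%). The overlaps of peaks with Menin fell chiefly among the strongest, with 6.45% at a −log10 q of 25 or more and at most 0.683% in the classes below. Without Menin, 0 of the 31 peaks in that class were overlapped. The 3 Menin-free ones were at Lars2, Sfi1 and Runx3. The Lars2 peak had 72 fragments where the background was 20.5 times the lowest, and the Sfi1 peak 39 fragments on a background 8.20 times the lowest. At Runx3, a transcription factor gene of blood cells, the background was the lowest of the list, with 10 fragments and a fold of 6.02. A Menin MI-503 peak overlapped 1 of the 8134 boundary peaks (0.0123%), and that one was with Menin. With 8 peaks in the list, the count could not be much above 0 in either group.

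The widest Menin-free peaks were at Sfxn5, a mitochondrial carrier gene, with 859 bp and 15.3-fold, and at Aldh4a1, a proline catabolism gene, with 849 bp and 13.4-fold. Ccng2, a cyclin gene, had 840 bp, with a Menin peak 356 bp away, and the shared promoter of Ddx31 and Gtf3c4 had 836 bp. Wide peaks were not all strong: the Ddx31 and Gtf3c4 peak had 6.57-fold and 11 fragments, and the peak of 752 bp at Vipas39 and Ahsa1 had 5.17-fold and 11 fragments.

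The Menin-free peaks touched 2718 of 20665 autosomal protein-coding genes (13.2%), or 34.6% of the 7852 genes with any boundary UTX MI-503 peak. Of the 2718, 1710 genes had no Menin DMSO peak within 1 kb of either boundary, which is 21.8% of the 7852. Gene lists are read against these 34.6% and 21.8%. Lists differ in the strength of their UTX peaks, which runs with the share, so the median −log10 q over all boundary UTX peaks is given for each list described, and the part of strength in it was not tested.

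**Figure D4:**
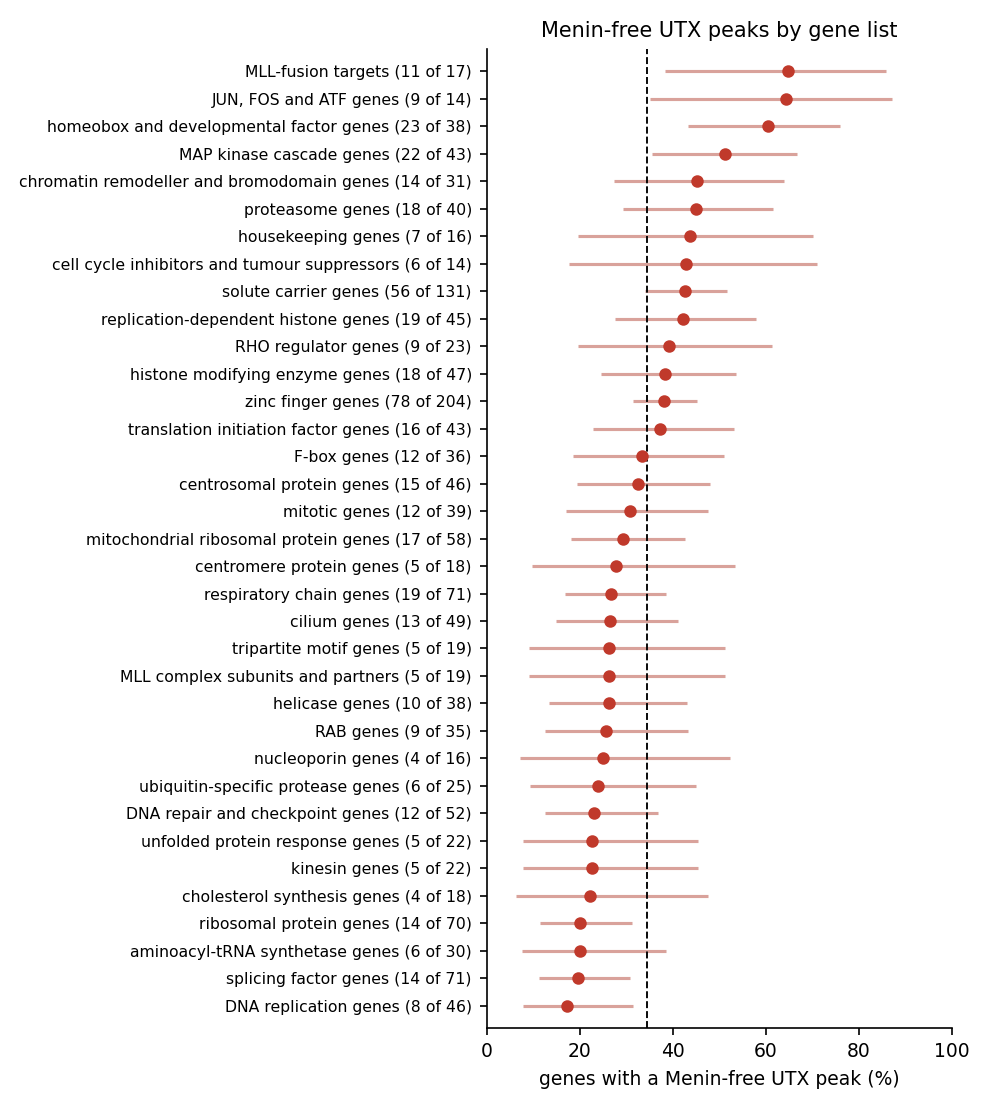
Share of genes with a Menin-free UTX peak among genes with any boundary UTX MI-503 peak (percent), by gene list, for the 35 lists with at least 14 such genes. Points give the share, whiskers exact 95% intervals, labels the counts, and the dashed line is the 34.6% over all genes.

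Genes of mitosis lay near the background, with strong peaks among them. Of 39 mitotic genes with a boundary UTX peak, 12 had a Menin-free one (30.8%, 17.02 to 47.6%) and 9 had no Menin at either boundary (23.1%), at a median −log10 q of 20.1. Cdk1, the kinase that drives entry into mitosis, had 14.2-fold and 25 fragments, 139337 bp from the nearest Menin peak. Spc25, a subunit of the NDC80 complex that attaches microtubules to kinetochores, had 11.7-fold and 23 fragments. Aurkb, Bub3 and Mki67, which encode the Aurora B kinase, a spindle checkpoint protein and the Ki-67 protein, had 10.1-fold, 9.74-fold and 9.30-fold. Cdc20, an activator of the anaphase-promoting complex, and Ccnb1, which encodes cyclin B1, had 8.04-fold and 7.77-fold.

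Among other genes of chromosome segregation and replication, the interval of DNA replication genes lay below the 34.6% background, and those of centromere protein, kinesin and DNA repair genes held it. The median −log10 q was 28.4 in the centromere protein, 18.1 in the kinesin, 19.6 in the replication and 18.04 in the repair list. Centromere protein genes had Menin-free peaks in 5 of 18 (27.8%, 9.69 to 53.5%), led by Cenpe, the kinetochore motor CENP-E, with 15.1-fold, 28 fragments and a summit 2 bp from the start. Kinesin genes had them in 5 of 22 (22.7%, 7.82 to 45.4%), among them Kif3b with 11.5-fold. Kif20a had 9.70-fold, in a Menin-free peak shared with Brd8. DNA replication genes had them in 8 of 46 (17.4%, 7.82 to 31.4%), with 4 genes free of Menin at both boundaries, Mcm6, Pola2, Dut and Pole, at folds of 8.64 to 9.49. DNA repair genes had them in 12 of 52 (23.1%, 12.5 to 36.8%), and 8 of the 12 had Menin at a boundary. Rad50, a subunit of the MRE11 complex, was the highest of them, with 14.4-fold and 26 fragments.

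Genes known as direct targets of MLL fusion proteins had Menin-free peaks in 11 of 17 (64.7%, 38.3 to 85.8%), at a low median −log10 q of 8.89. Of the 11, 7 genes had no Menin at either boundary: Myb, Myc, Meis1, Flt3, Hoxa10, Jmjd1c and Arid1b. Their UTX peaks were weak, from 5.47-fold at Arid1b to 7.43-fold at Myb, with 9 to 13 fragments. Meis1, the homeobox partner of HOXA9, had 6.28-fold with the summit 844 bp from its boundary and the nearest Menin peak 310721 bp away. Flt3, a growth factor receptor gene, had 6.15-fold with the summit 22 bp upstream of the start. At Hoxa3, Hoxa11 and Elf1, Menin had a peak at a boundary, and at the 2 Hoxa genes it lay 175 and 42 bp from the UTX peak.

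Developmental factor genes gave a like picture. Homeobox and other developmental factor genes had Menin-free peaks in 23 of 38 (60.5%, 43.4 to 76.0%), with 15 genes free of Menin (39.5%, 24.0 to 56.6%) and a median −log10 q of 6.83 over all their boundary UTX peaks. Pbx2, a partner of HOX proteins, was highest with 9.85-fold and a summit 57 bp from the start. Foxj1 had 9.85-fold in a peak it shared with Rnf157, and Gata5 and Foxk2 each had 6.57-fold. Zinc finger genes had Menin-free peaks in 78 of 204 (38.2%, 31.5 to 45.3%), with 58 free of Menin (28.4%, 22.4 to 35.2%) and a median −log10 q of 10.4. Zfp386, Zfp148 and Zfp207 led with 11.7-fold, 11.4-fold and 11.0-fold.

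Replication-dependent histone genes, which are switched on in S phase, had Menin-free peaks in 19 of 45 (42.2%, 27.7 to 57.8%), and 16 of the 19 had no Menin at either boundary. The median −log10 q of this list was 11.6. Many of these genes lie in pairs, and several shared a peak. H2bc12 and H2ac12 shared one of 11.5-fold and 20 fragments, H2ac15 and H2bc15 one of 10.4-fold, and H2bc3 and H3c3 one of 9.37-fold. H3c10 and H2ac13 shared one of 9.30-fold. The genes of a pair are therefore not separate peaks.

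The JUN, FOS and ATF genes, which encode bZIP transcription factors, had Menin-free peaks in 9 of 14 (64.3%, 35.1 to 87.2%), and 7 of the 9 had Menin at a boundary, at a median −log10 q of 10.8. Junb, Fosl2, Fos, Fosb, Atf4 and Jund had their Menin-free peaks 234 to 341 bp from a Menin peak. Jun was free of Menin, with a peak of 13.1-fold and 23 fragments at 97 bp upstream of the start and a Menin peak no nearer than 72780 bp, and so was Creb1 with 6.20-fold. Unfolded protein response genes had Menin-free peaks in 5 of 22 (22.7%, 7.82 to 45.4%), a lower share. All 5 had Menin at a boundary, with Herpud1 highest at 8.21-fold. Over that list the UTX peaks were strong, with a median −log10 q of 38.1.

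Antigen presentation genes had Menin-free peaks in 7 of 9 (77.8%, 39.99 to 97.2%), of which 2 were free of Menin, at a median −log10 q of 9.13. H2-K1, a class I major histocompatibility gene, had 9.73-fold and B2m, the light chain of class I molecules, had 5.31-fold. Tap1, a peptide transporter gene, and Psmb9, an immunoproteasome subunit gene, shared a peak of 7.11-fold 44 bp from Menin. Cell cycle inhibitor and tumour suppressor genes had them in 6 of 14 (42.9%), with Rbl1 at 10.8-fold and Cdkn1b at 7.88-fold free of Menin and Cdkn2a at 6.57-fold 262 bp from Menin. The median −log10 q was 15.4 in that list and 7.80 in the myeloid one. Of 36 myeloid genes 10 had a boundary UTX peak, and 4 had a Menin-free one, Cebpd, Cebpb, Cebpe and Irf8, at 6.57-fold to 7.25-fold. Cebpd and Cebpe had no Menin at either boundary, while Cebpb and Irf8 had Menin at a boundary. Of 11 genes of other blood lineages and fibroblasts, 0 had a boundary UTX peak of any kind. Over all autosomal protein-coding genes it was 7852 of 20665, a larger share than in the myeloid list. Peak lists do not measure expression, and these counts do not check the labelled cell type.

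Among subunits and partners of the MLL complexes, 5 of 19 genes had a Menin-free peak (26.3%, 9.15 to 51.2%), at a median −log10 q of 11.1. Psip1, which encodes LEDGF, the chromatin tether of the Menin-MLL1 complex, had 14.2-fold and 25 fragments 38409 bp from the nearest Menin peak. Setd1b had 8.49-fold and was also free of Menin, and Setd1a, Wdr82 and Kmt2a had Menin at a boundary. Chromatin remodeller and bromodomain genes had Menin-free peaks in 14 of 31 (45.2%, 27.3 to 64.0%), Arid3a leading with 12.04-fold, and histone modifying enzyme genes in 18 of 47 (38.3%), among them Kmt5b with 10.9-fold and Hdac2 with 8.76-fold. The median −log10 q was 11.4 in the remodeller list and 13.1 in the enzyme list.

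Ribosomal protein and splicing factor genes lay below the background, and translation factor and proteasome genes did not. Ribosomal protein genes had Menin-free peaks in 14 of 70 (20.0%, 11.4 to 31.3%), Rpl11 leading with 9.61-fold. Splicing factor genes had them in 14 of 71 (19.7%, 11.2 to 30.9%) and 5 of these genes were free of Menin (7.04%, 2.33 to 15.7%), against 21.8% over all genes. Srsf6, a serine and arginine rich splicing factor gene, was the exception in strength, with 15.9-fold, 28 fragments and the nearest Menin peak 85790 bp away. Translation initiation factor genes had them in 16 of 43 (37.2%), with Eif3f at 11.2-fold. That list was made by symbol and also counts Eif2ak2, Eif2ak3 and Eif4ebp2, which are not themselves initiation factors. Proteasome genes had them in 18 of 40 (45.0%, 29.3 to 61.5%), 9 of the 18 free of Menin, Psme1 leading with 8.49-fold. The median −log10 q was 18.01 for ribosomal protein, 20.4 for splicing factor, 14.9 for translation initiation factor and 12.9 for proteasome genes.

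Signalling and metabolic families spread around the 34.6% background, and the interval of the MAP kinase cascade list lay just above it. That list was made by symbol and also holds Dusp phosphatase genes and genes such as Mapk8ip3. MAP kinase cascade genes had Menin-free peaks in 22 of 43 (51.2%, 35.5 to 66.7%), of which 9 were free of Menin, with Braf at 9.03-fold and Mapk13 at 8.49-fold. Solute carrier genes had them in 56 of 131 (42.7%, 34.1 to 51.7%), with Slc25a44 at 12.9-fold and the zinc exporter Slc30a1 at 12.04-fold. The Slc25a44 peak was shared with Pmf1. Respiratory chain genes had Menin-free peaks in 19 of 71 (26.8%), with Ndufb1 at 10.6-fold in a peak shared with Cpsf2. Mitochondrial ribosomal protein genes had them in 17 of 58 (29.3%), with Mrps21 at 7.27-fold. The median −log10 q was 12.8 for MAP kinase cascade, 11.3 for solute carrier, 14.9 for respiratory chain and 11.6 for mitochondrial ribosomal protein genes.

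The CCAAT box was searched on both strands in the 300-base windows of RefSeq, counting each peak once with the promoter of its own boundary gene. It was in the windows of 661 of 1913 Menin-free peaks with a start within 1 kb (34.6%, 32.4 to 36.7%), of 2054 of 4459 peaks with Menin (46.1%, 44.6 to 47.5%) and of 7656 of 20085 promoter windows in all, which include these (38.1%). Where the window itself held the UTX summit, the shares were 35.0% (216 of 617, 31.2 to 38.9%) without Menin and 50.8% (1636 of 3221, 49.05 to 52.5%) with Menin.

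At like UTX strength the intervals of the groups overlapped in all 6 classes, which does not show that the shares were equal. The share was higher without Menin from 7.5 to 10 and in the classes at 15 or more, and lower in the others. From 15 to 25 each share lay outside the interval of the other. Without Menin the share was 24.5% (16.7 to 33.8%) below a −log10 q of 5, 25.3% from 5 to 7.5, 37.8% from 7.5 to 10, 38.8% from 10 to 15, 58.6% (46.2 to 70.2%, 41 of 70) from 15 to 25 and 68.8% (41.3 to 89.0%, 11 of 16) at 25 or more. With Menin it was 28.6%, 33.3%, 35.3%, 43.5%, 44.8% (41.3 to 48.4%) and 63.0% (60.4 to 65.5%) in the same classes. The box was therefore more frequent at strong UTX peaks both without and with Menin. The classes at 15 or more hold 86 Menin-free peaks. The median GC content of the windows was 62% without Menin and 63% with Menin, against 57% over all promoter windows.

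**Figure D5:**
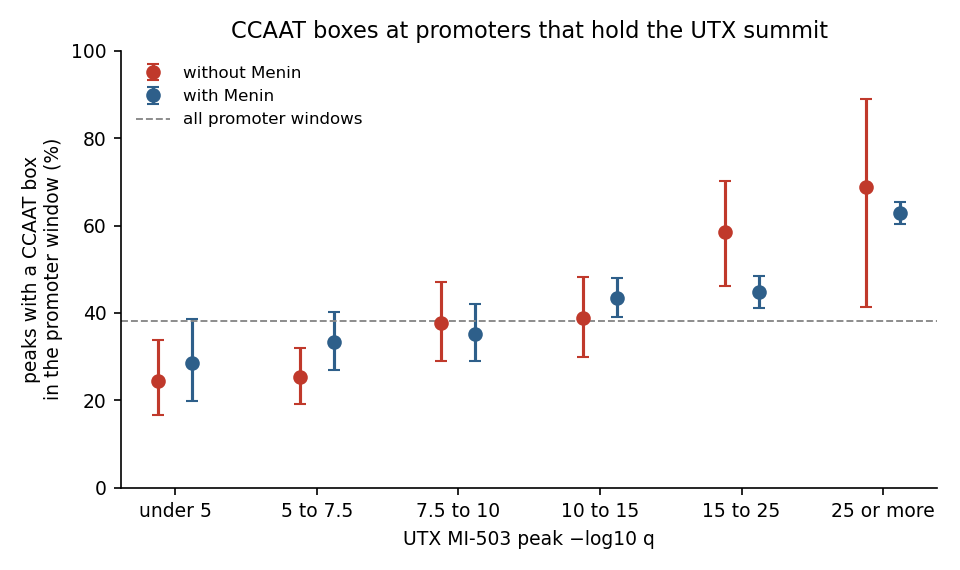
Share of peaks whose promoter window holds a CCAAT box (percent), for peaks with the UTX summit in the window, by −log10 q of the UTX peak, without and with Menin. Points give the share and whiskers exact 95% intervals, the dashed line is the 38.1% over all promoter windows, and the share without Menin is 24.5% in the weakest class and 68.8% in the strongest.

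The position of the boxes was alike. The middle of the box lay at a median of 78 bp upstream of the start in Menin-free windows that held the summit (355 boxes), 80 bp upstream in windows with Menin (2951 boxes) and 88 bp upstream over all windows. The summit was a median of 49 bp from the nearest box without Menin and 36 bp with Menin. Windows with 2 or more boxes made up 15.7% without Menin, 25.1% with Menin and 12.8% over all promoter windows, and these shares were not matched for UTX strength. The windows of Arl15, Cdk1, Spc25 and Ccnb1 printed above are among those without Menin. A match is a run of letters, and binding by NF-Y was not measured in the lists used.

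Other promoter motifs were searched on both strands in the windows that held the summit, by their letters, and none of those named here contains another. The GC box GGGCGG was in 61.9% of windows without Menin (58.0 to 65.8%), 78.1% with Menin (76.6 to 79.5%) and 47.0% of all windows. In classes of like −log10 q it was in 58.9% without Menin (51.6 to 66.0%) and 78.6% with Menin (72.4 to 83.9%) from 5 to 7.5, and in 55.5% without Menin (46.1 to 64.6%) and 80.1% with Menin (74.2 to 85.1%) from 7.5 to 10. In the other 4 classes it was also the less frequent without Menin, with 66.0% against 70.4% below 5 and 68.8% against 80.6% at 25 or more, and there the intervals overlapped. The ETS core CCGGAAG was in 19.9%, 25.8% and 11.9% of the same sets, and the E-box CACGTG in 8.59%, 14.2% and 7.89%. The CRE letters TGACGTCA were in 2.27%, 5.96% and 2.30%, and the YY1 letters AAGATGGC in 3.89%, 6.43% and 3.06%. TATAAA was in 6.97%, 5.06% and 12.7%, and TGANTCA, the AP-1 letters with N for any base, in 4.70%, 3.23% and 7.06%. By value alone, the windows without Menin lay between those with Menin and all promoter windows for each of these motifs except the CRE letters. Their intervals held the share over all windows for the E-box (6.50 to 11.1%), the CRE letters (1.25 to 3.78%) and the YY1 letters (2.51 to 5.73%). The AP-1 interval (3.17 to 6.68%) held the share with Menin. Apart from the GC box, these shares are not given at like UTX strength.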

How the data were processed

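Chromatin immunoprecipitation peak lists of 4 WT-MA9 libraries were used. Per the labels' protocols, fixation was in 1% paraformaldehyde for 5 minutes and sonication lasted 14 minutes. Peaks were called with MACS2 on mm10, per the submitters' processing notes, while aligner, filters and version are not given in these sources. Each list was called on 1 library. The deposited fold is the ratio of summit pileup plus 1 to local background plus 1. The deposited −log10 columns hold p-values and q-values per peak. The deposited score was not used in any result. Of 30 labelled libraries, the other 26 were not analysed here.

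Pileups and backgrounds were solved from the deposited fold and p-value. The whole number of fragments gave back the −log10 p-value within 0.000207 in every UTX MI-503 peak. Absolute depth is unknown. Genes came from RefSeq (GRCm38.p6, the assembly of mm10), with 20665 autosomal protein-coding genes. The gene table has no strand, so strand, starts and promoter sequences came from a RefSeq promoter table with entries for 16457 of them. None of these entries is on chromosome 18. Positions are counted from 1. Shares have exact Clopper-Pearson intervals and medians exact binomial ones, both at 95%. Neighbouring peaks are not independent, so these are too narrow.

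The peaks and all 42 gene lists, 16 by name and 26 by symbol pattern, were chosen with earlier results of these data known. Genes named were the 12 highest and 3 lowest peaks, those nearest to or farthest from Menin, those at the limits of the choice, those with a UTX DMSO peak, the widest, and up to 8 genes per list in order of −log10 q. A few more, named to account for a count or for peaks at gene ends, were chosen after their values were seen. Predicted genes were counted without being named. A few other genes of this choice are not reported here. On simulated data, pileup and background were recovered in 99.8% of 489 peaks, and planted overlaps, boundary genes and CCAAT boxes in 100% of 400 each. Python 3.11.15, pandas 2.3.3 and scipy 1.17.1 were used.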

Additional observations from a re-analysis of the deposited data

How the results depend on the processing

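No paired analysis was possible because each condition had 1 library. The share of boundary UTX peaks without Menin moved with most alternatives, most with a UTX −log10 q of at least 10. It was 24.0% when a Menin peak within 500 bp counted as overlap, 40.9% when overlap had to cover 50% of the UTX peak, 27.6% with a window of 500 bp and 36.3% with one of 3 kb. It was 27.1% among UTX peaks with a −log10 q of at least 5 and 10.9% (518 peaks) at 10 or more. It was 35.2% against Menin peaks with a −log10 q of at least 5, 34.1% with all annotated genes and 26.3% with 1 peak per cluster. The median fold was 6.42, 6.50, 6.06 and 6.62, and the median width 222, 221, 211 and 237 bp, with Menin within 500 bp, the 500 bp window, the 3 kb window and the UTX −log10 q of at least 5. The share at a gene start was 91.5% with Menin within 500 bp, 95.4% with the 500 bp window and 91.3% without peaks within 1 kb of Menin, the last chosen after seeing the data. The CCAAT share on the gene strand alone was 21.8% without Menin, 27.4% with Menin and 21.5% over all windows. The difference in median summit position, 134 bp downstream for peaks without Menin relative to those with, was 100, 56, 27 and 31 bp in the 4 strongest classes of −log10 q. It stayed positive in all 6. These differences include the peaks near Menin, whose position is in part fixed by the choice. Apart from the alternatives' own construction, the cause was not tested. Counting the summit from 0, also added later, gave 2622 peaks. The lists name no peak below the caller's threshold, so an undetected Menin peak cannot be told from none.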
